A study of Mus musculus with 17 samples.

Results

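The genes described here encode the subunits of the proteasome, its assembly chaperones and its regulatory caps. They were chosen by symbol alone: protein-coding mouse genes named Psma, Psmb, Psmc, Psmd, Psme, Psmf or Psmg followed by a number. This gave 49 genes of 21887 protein-coding genes on chromosomes 1 to 19, X and Y in the RefSeq gene table of GRCm38.p6, the assembly that mm10 denotes. By role they were 8 alpha subunits of the 20S core, 7 constitutive beta subunits, 4 inducible beta subunits, 6 ATPases of the 19S cap, 11 non-ATPase subunits of the cap, 3 cap chaperones, 4 core chaperones and 5 activators or inhibitors. Psme2b was placed in no class.

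The study mapped the transcription factor RUNX1 and the chromatin remodeller CHD7 by ChIP-seq in 416B, a line of mouse myeloid progenitors. All cells were transfected with a plasmid for the tetracycline silencer tTS, the transactivator rtTA and blasticidin resistance under an Ef1alpha promoter. CM cells also received the Cbfb-Myh11 (CM) type A cDNA, joined through F2A to mCherry, under a tetracycline-responsive element. CM is the fusion protein of acute myeloid leukaemia with inversion of chromosome 16, and its Cbfb portion binds RUNX1. Control cells received the plasmid without CM (construct name Control-ATG). Clones grown from single cells were tested and selected before use, and the labels do not say how many clones the libraries came from. The 4 conditions were Control -Dox, Control +Dox, CM -Dox and CM +Dox, where +Dox is 1 ug/ml doxycycline for 24 hours. Each antibody had 2 libraries per condition, and an IgG sample was not analysed here. Nothing in the labels says whether the 2 replicates came from separate cultures.

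The proteasome is the protease that degrades most ubiquitin-tagged proteins in the cytosol and nucleus. Its 20S core is a barrel of alpha and beta rings with the active sites on 3 of the beta subunits, and the 19S cap recognises, unfolds and feeds in the substrate with its ring of ATPases. Immune and blood cells can exchange the catalytic subunits for the inducible ones of the immunoproteasome, which shapes the peptides shown on MHC class I. Transcription factors of the NFE2L family, through antioxidant response elements, are known to raise many of these genes together when proteasome activity is low.

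Promoter windows reach from 250 bases before to 50 bases after an annotated RefSeq start, and 41 of the 49 genes had at least 1 (44 windows, GRCm38.p6). The first set below holds windows that a RUNX1 peak met in all 8 RUNX1 libraries, followed by 1 that it met in all 6 libraries without induced CM and in neither CM +Dox library. They are Psmd8 (chr7:29180624-29180923, minus strand), Psmd9 (chr5:123227940-123228239, plus strand), Psmb6 (chr11:70525107-70525406, plus strand), Psma3 (chr12:70974373-70974672, plus strand) and the lost window of Psmb4 (chr3:94886909-94887208, minus strand). Each is printed 5′ to 3′ on the strand of its gene. Capitals mark matches on either strand to the RUNX motif TGTGGT or its variant TGCGGT, the antioxidant response element TGACNNNGC, the NF-Y motif CCAAT and the ETS motif CCGGAAG.
Psmd8: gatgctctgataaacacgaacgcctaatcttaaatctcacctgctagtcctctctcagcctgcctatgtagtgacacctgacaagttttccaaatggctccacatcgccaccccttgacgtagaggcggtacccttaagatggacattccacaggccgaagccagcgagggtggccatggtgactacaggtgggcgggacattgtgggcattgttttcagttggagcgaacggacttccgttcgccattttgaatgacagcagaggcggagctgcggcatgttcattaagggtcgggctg
Psmd9: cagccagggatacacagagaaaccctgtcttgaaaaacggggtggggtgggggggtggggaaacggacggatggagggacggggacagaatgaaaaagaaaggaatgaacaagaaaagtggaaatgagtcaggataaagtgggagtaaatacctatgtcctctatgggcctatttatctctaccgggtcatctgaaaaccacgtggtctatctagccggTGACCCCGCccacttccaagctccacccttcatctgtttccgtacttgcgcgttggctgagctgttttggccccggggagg
Psmb6: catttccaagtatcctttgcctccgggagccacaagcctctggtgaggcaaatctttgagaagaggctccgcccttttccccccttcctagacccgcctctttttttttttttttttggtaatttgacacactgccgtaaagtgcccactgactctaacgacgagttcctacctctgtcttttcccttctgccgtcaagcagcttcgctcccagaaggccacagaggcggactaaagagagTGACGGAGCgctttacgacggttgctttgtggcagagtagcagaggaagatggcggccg
Psma3: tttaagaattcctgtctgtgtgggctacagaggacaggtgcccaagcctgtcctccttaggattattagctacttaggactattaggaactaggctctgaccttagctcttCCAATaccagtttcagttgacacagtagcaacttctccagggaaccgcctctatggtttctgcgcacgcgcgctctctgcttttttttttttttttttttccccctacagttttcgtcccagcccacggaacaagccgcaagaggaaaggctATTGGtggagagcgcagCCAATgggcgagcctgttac
Psmb4: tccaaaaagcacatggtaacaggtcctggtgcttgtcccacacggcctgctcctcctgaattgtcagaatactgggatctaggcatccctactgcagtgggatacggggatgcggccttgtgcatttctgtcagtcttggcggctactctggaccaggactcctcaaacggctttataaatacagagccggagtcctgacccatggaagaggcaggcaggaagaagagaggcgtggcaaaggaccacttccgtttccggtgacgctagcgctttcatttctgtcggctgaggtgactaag

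None of these 5 windows held either RUNX motif. The fifth window met by RUNX1 in all 8 libraries, that of Psma6, is in the second set and holds 1. Psmd9 and Psmb6 each held 1 antioxidant response element, at position -31 and -9 from the start (the first base of the match, with the start base as 1), and Psma3 held 3 CCAAT matches. The windows of Psmd8 and Psmb4 held no match.

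A second set shows the windows of the 3 genes with the highest CHD7 peaks, picked after their values were seen. They are Psmd1 (chr1:86064369-86064668, plus strand), Psmb3 (chr11:97703184-97703483, plus strand) and Psmd6 (chr14:14120896-14121195, minus strand). The last window is an inner start of Psma6 (chr12:55398575-55398874, plus strand), also picked after its values were seen because it held the highest RUNX1 ranks of any proteasome promoter window. Capitals mark the same motifs.
Psmd1: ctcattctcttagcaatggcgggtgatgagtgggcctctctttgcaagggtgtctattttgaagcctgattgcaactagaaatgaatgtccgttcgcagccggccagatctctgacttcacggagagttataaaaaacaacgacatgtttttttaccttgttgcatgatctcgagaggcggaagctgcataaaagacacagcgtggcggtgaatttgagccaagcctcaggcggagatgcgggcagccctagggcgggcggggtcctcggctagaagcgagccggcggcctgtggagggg
Psmb3: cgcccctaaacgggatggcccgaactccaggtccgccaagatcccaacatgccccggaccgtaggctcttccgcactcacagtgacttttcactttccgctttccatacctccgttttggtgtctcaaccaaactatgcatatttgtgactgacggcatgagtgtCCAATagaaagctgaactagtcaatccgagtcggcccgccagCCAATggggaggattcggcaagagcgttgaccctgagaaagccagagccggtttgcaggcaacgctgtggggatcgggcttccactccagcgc
Psmd6: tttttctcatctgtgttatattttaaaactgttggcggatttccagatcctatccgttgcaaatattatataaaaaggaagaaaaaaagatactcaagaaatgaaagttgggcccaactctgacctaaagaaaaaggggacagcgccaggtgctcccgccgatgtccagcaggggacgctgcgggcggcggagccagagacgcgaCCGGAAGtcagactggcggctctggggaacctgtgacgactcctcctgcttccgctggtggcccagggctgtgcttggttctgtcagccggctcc
Psma6: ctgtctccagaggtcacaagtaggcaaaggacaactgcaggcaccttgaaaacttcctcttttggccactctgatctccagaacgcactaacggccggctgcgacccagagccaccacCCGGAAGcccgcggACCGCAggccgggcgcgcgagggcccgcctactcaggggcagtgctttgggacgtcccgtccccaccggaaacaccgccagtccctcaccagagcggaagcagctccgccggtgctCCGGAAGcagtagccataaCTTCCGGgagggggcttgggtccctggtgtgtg

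Psmd1 held no match, Psmb3 held 2 CCAAT matches and Psmd6 held 1 ETS match at position -45. The Psma6 window held 3 ETS matches, at positions -132, -2 and 18, and 1 RUNX match read on the opposite strand (ACCGCA at position -118).

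Each library had its own peak list, and a gene counted as called where a peak overlapped the 1 kb on either side of an end of its annotated span. Lists held 8140 to 16163 peaks for RUNX1 and 16323 to 37698 for CHD7, and their read depth is unknown. The 2 CM +Dox RUNX1 lists, with 8140 and 9710 peaks, were shorter than the other 6 (12603 to 16163). They called 18.9% and 19.2% of all genes, and the other 6 called 17.3% to 24.9%. The part of list length in the differences below was not tested beyond the equal-length values given. In the RUNX1 library labelled Control -Dox replicate 1 the peak names hold a +Dox tag, which goes against the label. Without it the RUNX1 counts of genes called in every library without induced CM (11), lost (2) and kept (7) were as with it. As a check of the labels, peaks inside Myh11 were present in 4 of 4 CM +Dox libraries, 3 of 4 CM -Dox libraries and 1 of 8 Control libraries. Peaks inside Cbfb were present in 4 of 4, 4 of 4 and 3 of 8.

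Proteasome genes carried peaks of both proteins more often than protein-coding genes at large, in every library. RUNX1 was called at 33 of the 49 in 1 or more of its 8 libraries, where 31.1% of all genes were. CHD7 was called at 40 of 49, where 38.9% of all genes were called. The all-gene share was not restricted to expressed genes, and expression was not analysed here. By library, RUNX1 was called at 27 and 20 proteasome genes in Control -Dox, 25 and 14 under Control +Dox, 22 and 20 in CM -Dox, and 17 and 20 in CM +Dox. The mean was 21.3 ± 4.55 (SD, n = 6) without induced CM and 18.5 ± 2.12 (SD, n = 2) in CM +Dox, and the ranges overlapped. With lists of equal length the order turned, to means of 6 without induced CM and 15.5 in CM +Dox. CHD7 was called at 27 and 31 in Control -Dox, 23 and 27 under Control +Dox, 25 and 32 in CM -Dox, and 23 and 28 in CM +Dox. Those means were 27.5 ± 3.45 (SD, n = 6) and 25.5 ± 3.54 (SD, n = 2), again with overlapping ranges.

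**Figure D1:**
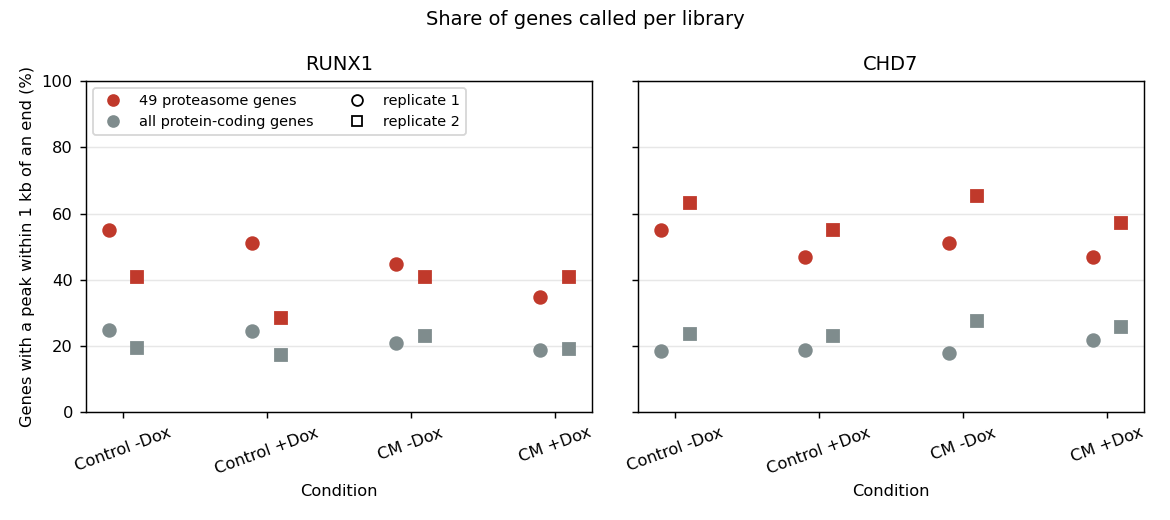
Share of genes with a peak within 1 kb of a gene end in each library, for the 49 proteasome genes (red) and all protein-coding genes (grey), with circles for replicate 1 and squares for replicate 2. Proteasome genes sit at 28.6% to 55.1% for RUNX1 and 46.9% to 65.3% for CHD7, above the grey points of the same library in all 16 libraries.

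The 2 proteins differed in how strong their peaks at these genes were within their own lists. Strength is given as the percentile rank of the peak score, a −log10 p, within its list (100 the highest, 0 where no peak was called). The median rank of the called proteasome genes lay between 73.6 and 91.8 in the CHD7 libraries, against 63.9 to 72.2 for all called genes, and was the higher of the 2 in each of the 8 libraries. In the RUNX1 libraries it lay between 18.4 and 50.3, against 34.8 to 54.1 for all called genes, and was the lower in each of the 8. The highest RUNX1 rank at any gene end of the 49 was 81.7, at Psmd7 in Control -Dox replicate 1, and no proteasome gene end had a RUNX1 rank of 90 or above in any library. Of all genes 2.9% reached that level in 1 or more libraries and 0.151% in all 8.

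**Figure D2:**
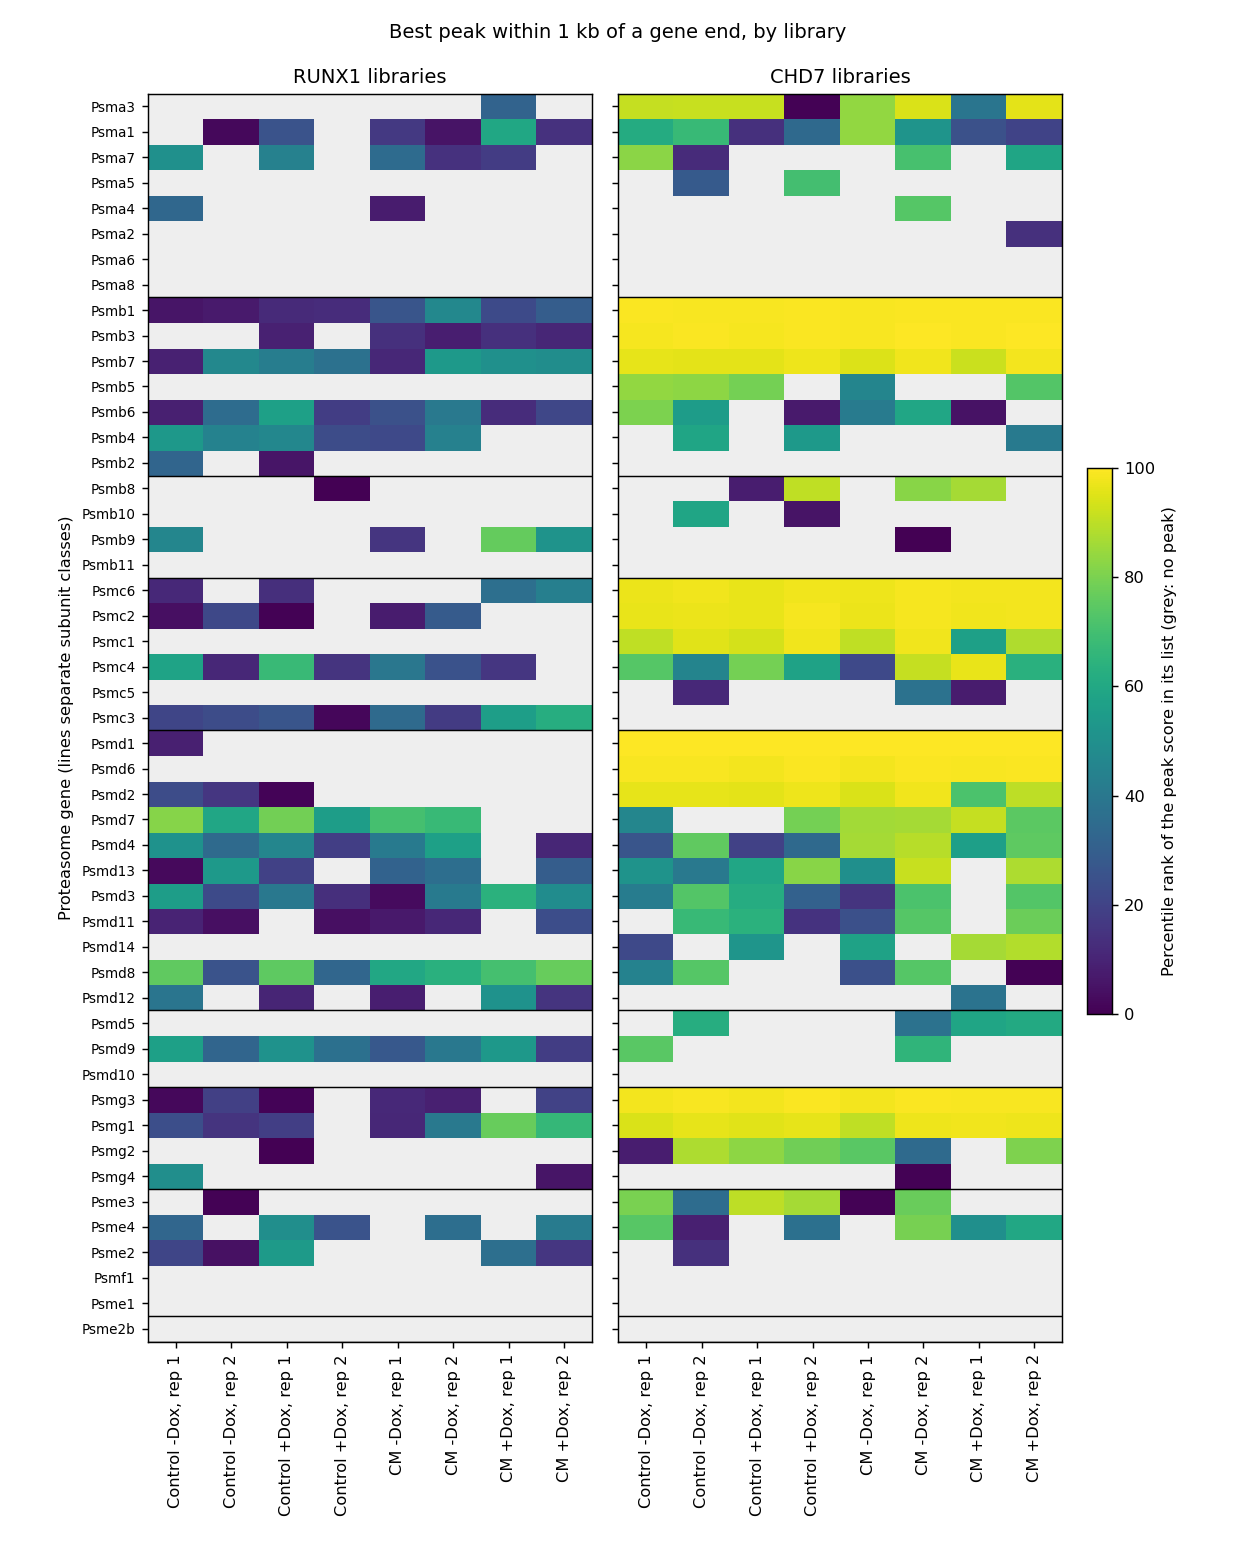
Percentile rank of the best peak within 1 kb of a gene end for each of the 49 proteasome genes (vertical axis, lines separating the classes) in the 8 RUNX1 libraries (left) and the 8 CHD7 libraries (right), with grey where no peak was called. A block of 9 genes stays at rank 90 or above in all 8 CHD7 libraries, while no RUNX1 cell exceeds 81.7.

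CHD7 was called in all 6 libraries without induced CM at 19 of the 49 genes, against 10.5% of all genes. It was called in all 8 libraries at 15 of them, against 9.54% of all genes. Of those 15, 9 ranked 90 or above in every CHD7 library, a threshold set after the ranks were seen, where 3.44% of all genes did so. The 9 spread over the core, the cap and the chaperones: Psmb1, Psmb3 and Psmb7 of the beta ring, the ATPases Psmc2 and Psmc6, the cap subunits Psmd1 and Psmd6, and the core chaperones Psmg1 and Psmg3. No alpha subunit, inducible subunit or activator was among them at the annotated gene ends. An inner start of the inhibitor gene Psmf1, described below, had CHD7 ranks of 98.0 to 99.3 in all 8 libraries.

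Psmd1, the larger of the pair of big scaffold subunits of the cap, had the highest CHD7 ranks. Its peak ranked 99.8 and 99.9 in Control -Dox, 99.7 and 99.9 under Control +Dox, 99.8 and 99.96 in CM -Dox, and 99.8 and 99.9 in CM +Dox. Its −log10 p ran from 83.1 to 189, against a median CHD7 score of 3.81 over all lists. All 8 libraries were alike, and the peaks spanned at most bases 86063896 to 86064858 of chromosome 1, over the annotated start at 86064619.

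Psmb3, a non-catalytic beta subunit, ranked 98.7, 99.2, 98.7, 99.4, 99.1 and 99.6 in the 6 libraries without induced CM and 99.3 and 99.7 in CM +Dox. Its gene start lies on chromosome 11 within 1 kb of that of Pcgf2, a Polycomb group gene. The best CHD7 peak reached over the start of Psmb3 in all 8 libraries. Psmd6, a cap subunit, ranked 98.9, 98.9, 98.2, 99.3, 98.3 and 99.5 without induced CM and 99.2 and 99.4 in CM +Dox. It had no RUNX1 peak in any of the 8 RUNX1 libraries.

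Psmb1, a non-catalytic beta subunit, had CHD7 ranks from 98.9 to 99.5 over the 8 libraries. Psmg3 and Psmg1, chaperones that help the alpha ring to form, ranked 98.1 to 99.5 and 90.6 to 97.8. The ATPases Psmc6 and Psmc2 ranked 96.6 to 98.6 and 96.5 to 98.7. Psmb7, the trypsin-like active subunit, ranked 92.1 to 98.2. At Psmg3, Psmc6 and Psmc2 both CM +Dox ranks lay inside the range of the other 6 libraries. At Psmg1 they were 97.8 and 97.5, both just above the range of 90.6 to 97.35. At Psmb7 they were 92.1 and 98.2, just outside the range of 94.9 to 98.0 on either side.

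Just under the threshold stood Psmd2, the partner scaffold subunit of Psmd1, with a mean rank of 92.4. It ranked 94.2 to 97.9 in the 6 libraries without induced CM and 71.5 and 90.2 in CM +Dox, so the groups did not overlap. The ATPase Psmc1 ranked 90.4 to 97.9 in the 6 and 56.8 and 88.002 in CM +Dox, also without overlap. These lists differ in length, so a lower rank is not read as less binding. Psma3, Psmc4, Psmd4 and Psma1 made up the rest of the 15, with ranks that ranged widely, as from 0.41 to 95.9 at Psma3.

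Most CHD7 calls were kept with induced CM, 78.9% against 91.2% of all genes so called. The order of these shares depended on the peaks used. With lists of equal length 12 of 13 genes were kept, against 81.1% of all genes. With peaks at or above the median score 11 of 11 were kept, against 92.8%. Of the 19 genes called in all 6 libraries without it, 1 was lost, meaning called in neither CM +Dox library (0.961% of all genes called in the 6), 3 were called in 1 CM +Dox library (7.86%) and 15 were kept in both (91.2%). No proteasome gene was gained, meaning absent from all 6 and called in each CM +Dox library, where 0.352% of all genes were. The lost gene was Psme3, which encodes the nuclear PA28 gamma activator. Its CHD7 ranks were 80.0 and 35.2 in Control -Dox, 90.005 and 86.7 under Control +Dox, and 0.726 and 77.1 in CM -Dox. It had no CHD7 peak in CM +Dox. The call in CM -Dox replicate 1 lay near the foot of its list. A two-sided Fisher exact test gave p = 0.0357, the smallest that 2 against 6 libraries allows, and an adjusted p of 1 over the 8505 genes tested.

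The 3 genes with a CHD7 call in 1 CM +Dox library were the cap subunits Psmd3 and Psmd13 and the core chaperone Psmg2. In each, CM +Dox replicate 1 had no peak and replicate 2 had one, at rank 73.2 for Psmd3, 87.5 for Psmd13 and 80.6 for Psmg2. Without induced CM their ranks ran from 14.9 to 73.2, from 40.5 to 91.5 and from 7.96 to 87.7. Leaving out CM +Dox CHD7 replicate 2 raised the count of lost genes from 1 to 4. No gene passed the CHD7 test across the genome: the lowest adjusted p was 1, and 99 genes had an unadjusted p at or below 0.05. Of the genes tested, 0.259% had such a p with fewer CM +Dox calls, Psme3 among them, and 0.905% with more, no proteasome gene among them.

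RUNX1 was called in all 6 libraries without induced CM at 11 of the 49 genes, against 13.5% of all genes. These were the beta subunits Psmb1, Psmb4, Psmb6 and Psmb7, the ATPases Psmc3 and Psmc4, the cap subunits Psmd3, Psmd4, Psmd7 and Psmd8, and the cap chaperone Psmd9. At the annotated gene ends no alpha subunit, inducible subunit, core chaperone or activator was called in all 6. All 4 core chaperones were called in at least 1 library. At inner starts, described below, RUNX1 was called in all 8 libraries at the alpha subunits Psma6 and Psma3. The share in all 8 libraries, 7 of 49 genes against 10.3% of all genes, was close to the background.

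Psmd8, a small subunit of the cap lid, had the highest mean RUNX1 rank, 60.0. It ranked 75.5 and 25.5 in Control -Dox, 75.2 and 32.8 under Control +Dox, 60.1 and 63.6 in CM -Dox, and 70.6 and 76.8 in CM +Dox. The CM +Dox values lay at the upper end of the spread of the others. Its peaks covered its start, with midpoints a median 42.5 bases into the gene, and the far end of Catsperg1 lies within 1 kb. Psmd9, a chaperone of ATPase ring assembly, ranked 56.8, 32.7, 51.1, 36.8, 27.4 and 40.2 without induced CM and 53.5 and 18.3 with it.

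Psmb7 was called in all 16 libraries of both antibodies, with RUNX1 ranks from 9.3 to 53.6 in the 6 libraries and 50.3 and 49.1 in CM +Dox. Psmd3 ranked 2.87 to 55.5 in the 6 and 63.8 and 48.7 in CM +Dox. Psmc3, an ATPase with no CHD7 peak in any library, ranked 1.73 to 34.7 in the 6 and 56.0 and 62.4 in CM +Dox, and the groups did not overlap. Psmg1 likewise ranked at most 40.5 in the 6, with no peak in Control +Dox replicate 2, and 76.9 and 66.5 in CM +Dox. The CM +Dox RUNX1 lists were shorter, and the part of list length in these ranks was not tested. They are therefore not read as a change in binding.

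Of the 11 genes called in all 6 libraries, 2 were lost with induced CM (12.3% of all genes so called), 2 were called in 1 CM +Dox library (11.5%) and 7 were kept in both (76.2%). The lost and kept shares were near the background, so they set these genes apart from no others. None was gained (0.306% of all genes).

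The lost genes were Psmd7, a cap subunit that pairs with the deubiquitinase Psmd14, and Psmb4, a non-catalytic beta subunit. Psmd7 had RUNX1 ranks of 81.7 and 59.0 in Control -Dox, 78.5 and 55.6 under Control +Dox, and 70.4 and 67.4 in CM -Dox. The −log10 p of those 6 peaks ran from 26.8 to 66.0, and neither CM +Dox list held a peak. Those 2 lists had thresholds of 1e-07 (replicate 1, 8140 peaks) and 1e-09 (replicate 2, 9710 peaks), and their read depth is unknown. CHD7 at Psmd7 had a call in each CM +Dox library, at ranks 91.1 and 74.7, and in 4 of the other 6. Psmb4 had RUNX1 ranks of 53.3, 44.4, 46.3, 23.3, 21.9 and 43.9 in the 6 libraries and none in CM +Dox. Its window, printed above with no motif match, was met by the peak in the same 6 libraries. For both genes the two-sided Fisher exact p was 0.0357, the smallest the design allows, and the adjusted p was 0.564 over 6810 genes.

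Psmd4, a ubiquitin receptor of the cap, and Psmc4, an ATPase, kept 1 of 2 CM +Dox calls. Psmd4 ranked 18.6 to 56.9 in the 6 libraries, 10.6 in CM +Dox replicate 2 and had no peak in replicate 1. Psmc4 ranked 11.3 to 67.9 in the 6 libraries, 15.95 in CM +Dox replicate 1 and had no peak in replicate 2.

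Across the genome 364 genes had a RUNX1 p at or below 0.05 with fewer CM +Dox calls (5.35% of those tested) and 67 with more (0.984%). The lowest adjusted p was 0.564, and 0 genes passed. The same number of peaks was also taken from every RUNX1 list. Proteasome genes called in all 6 libraries then fell in number from 11 to 1, where 5.48% of all genes were so called. That gene, Psmd7, was still lost. At this list length 4 genes (Psmb1, Psmc3, Psmc6 and Psmg1) came out as gained, where 2.64% of all genes did.

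Of the constitutive catalytic subunits, Psmb7 had both proteins in all 16 libraries. Psmb6, the caspase-like subunit, had RUNX1 in all 8 libraries at ranks 8.85 to 56.9 and CHD7 in 6, at ranks up to 80.5. Psmb5, the chymotrypsin-like subunit and main target of proteasome inhibitors, had no RUNX1 peak, and CHD7 in 5 libraries at ranks 45.6 to 83.7.

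Of the 4 inducible subunits, 2 had a RUNX1 call in 1 or more libraries (31.1% of all genes) and 3 a CHD7 call (38.9%). Psmb9 was called by RUNX1 at 45.7 in Control -Dox replicate 1, 15.3 in CM -Dox replicate 1, and 76.2 and 51.3 in CM +Dox, and in no other library. The peak lay in the space shared with Tap1, an MHC class I peptide transporter gene whose start lies beside that of Psmb9, and it gave Tap1 its highest RUNX1 rank. Psmb8 had RUNX1 in 1 library at rank 0.23, and CHD7 at 8.0 and 90.5 under Control +Dox, 82.1 in CM -Dox replicate 2 and 86.4 in CM +Dox replicate 1, near the far end of Tap1. Psmb10 had CHD7 in 2 libraries and no RUNX1, and Psmb11, the thymus-specific subunit, had neither.

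Calls of RUNX1 and CHD7 pooled over the 8 libraries of each antibody are given first, and those within single pairs of libraries follow. Both were called in at least 1 library each at 31 of the 49 genes (26.7% of all genes), and in all 16 libraries at Psmb1 and Psmb7 (3.5% of all genes). RUNX1 without CHD7 was seen at Psmb2 and Psmc3 (4.45% of all genes). CHD7 without RUNX1 was seen at 9 genes (12.2% of all genes): Psma2, Psma5, Psmb5, Psmb10, Psmc1, Psmc5, Psmd5, Psmd6 and Psmd14. No peak of either protein lay near the ends of Psma6, Psma8, Psmb11, Psmd10, Psme1, Psme2b and Psmf1, a state shared by 56.7% of all genes.

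Within libraries of the same condition and replicate number, both proteins were called at 18 and 17 genes in Control -Dox, 14 and 11 under Control +Dox, 15 and 18 in CM -Dox, and 10 and 13 in CM +Dox. The mean was 15.5 ± 2.74 (SD, n = 6) without induced CM and 11.5 ± 2.12 (SD, n = 2) in CM +Dox, with overlapping ranges. With lists of equal length these means were 3.83 and 7.5, in the opposite order. Among genes with RUNX1, the share with CHD7 was 56.0% to 90% of proteasome genes in the 6 pairs, against 50.7% to 70.2% of all genes, and 58.8% and 65.0% in CM +Dox, against 55.6% and 65.2%. Of the 9 genes at CHD7 rank 90 or above in every library, RUNX1 was called in all 8 libraries at Psmb1 and Psmb7 and in none at Psmd6, and the highest RUNX1 rank among the 9 was 76.9, at Psmg1 in CM +Dox replicate 1.

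**Figure D3:**
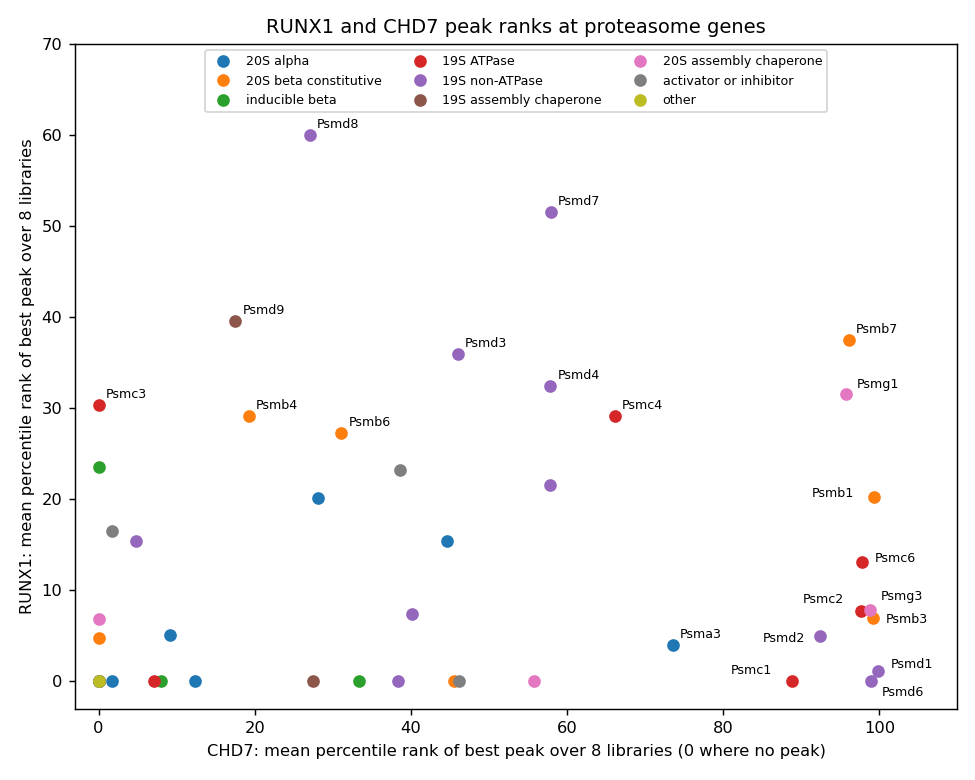
Mean percentile rank of the best peak over the 8 CHD7 libraries (horizontal axis) and the 8 RUNX1 libraries (vertical axis) for each of the 49 proteasome genes, coloured by class, with 0 for a library without a peak. Psmd1, Psmd6 and Psmb3 stand at the lower right with CHD7 means of 99.9, 99.0 and 99.2 and RUNX1 means of 1.1, 0 and 7.0, and Psmd8 stands highest for RUNX1 at 60.0 with a CHD7 mean of 27.1.

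Peaks lay at the starts of these genes rather than at their far ends. For the 41 genes whose strand the RefSeq promoter table gives, all 132 RUNX1 peaks at a gene end were at the start, where 89.1% were for all genes with a strand. Of 205 CHD7 peaks 200 were at the start (97.6%, against 85.9% for all genes), and the other 5 were at Psma1, Psmc6, Psmd11 and Psme2. RUNX1 midpoints had a median of -56 bases from the outermost start, and 84.1% lay within 250 bases of it, against -35 bases and 75.4% for all genes. CHD7 midpoints had a median of -149.5 bases with quartiles of -384.5 and 37.25, and 45.0% lay within 250 bases. For all genes the CHD7 median was -52 bases with quartiles of -359 and 377, and 38.8% lay within 250 bases, so the wider spread of CHD7 is not particular to the proteasome genes.

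**Figure D4:**
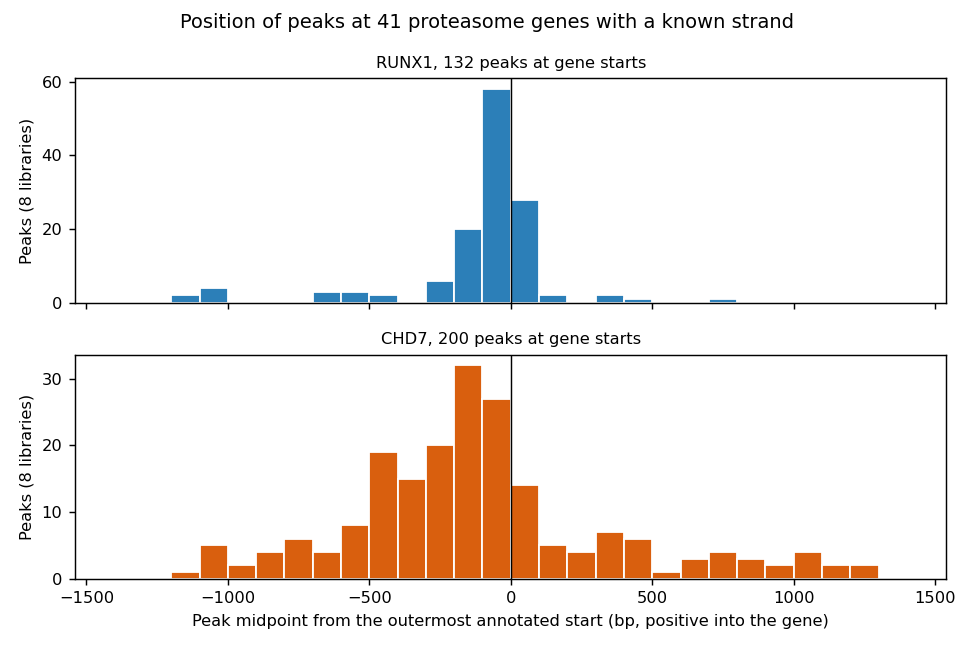
Distance of peak midpoints from the outermost annotated start of the 41 proteasome genes with a known strand, in bins of 100 bases (negative values upstream), for RUNX1 (top, 132 peaks of 8 libraries) and CHD7 (bottom, 200 peaks of 8 libraries). RUNX1 midpoints gather just before the start with a median of -56 bases, and CHD7 midpoints reach further upstream with a median of -149.5 bases.

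Of the 42 genes with a peak, 13 had an end of another protein-coding gene within 1 kb of their best peak. The same share over all genes with a peak is not given here, so the count is a description only. Among the 13 was Psmd13, a cap subunit, whose start (base 140882394 of chromosome 7) lies beside that of Sirt3 (base 140882309). RUNX1 midpoints there had a median of -1063.5 bases from the Psmd13 start, a position inside the span of Sirt3 (140863663 to 140882309). The start of Psma7 lies beside that of Ss18l1, and the start of Psmc5 beside that of Ftsj3.

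Some starts lie inside the annotated span, over 1 kb from either end, and the end-based calls missed them. At the inner start of Psma6, an alpha subunit with no peak at its annotated ends, RUNX1 ranked 93.0 and 88.2 in Control -Dox, 92.7 and 84.3 under Control +Dox, 92.4 and 90.6 in CM -Dox, and 97.2 and 97.0 in CM +Dox. These are higher than any RUNX1 rank at a gene end of the 49. CHD7 was also called there in all 8 libraries, at ranks 37.6 to 94.9. The window is printed above with its 3 ETS matches and 1 RUNX match. At an inner start of Psmf1 (chr2:151741261-151741560), which encodes the inhibitor PI31, CHD7 ranked 98.0 to 99.3 in all 8 libraries and RUNX1 was called in none. At the inner start of Psma3 RUNX1 was called in all 8 libraries at ranks 10.8 to 53.1, and CHD7 in 5.

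Counted by promoter window, an alternative added after the data were seen, a RUNX1 peak met 27 of the 44 windows in 1 or more libraries (27.4% of all windows) and 5 in all 8 (8.52%). A CHD7 peak met 34 in 1 or more libraries (27% of all windows) and 12 in all 8 (5.53%). Of the proteasome windows that is 27.3% for CHD7 and 11.4% for RUNX1, out of 21263 windows in all for the background.

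The ETS motif CCGGAAG, known to be bound by ETS factors such as GABPA, stood in 15 of the 44 windows (34.1%), against 11.6% of all windows, on either strand. It stood in 8 of the 12 windows met by CHD7 in all 8 libraries (66.7%), against 38.2% of the 1175 such windows in the genome. The other motifs were about as common as elsewhere: either RUNX motif in 22.7% of proteasome windows against 21.6% of all, the antioxidant response element in 13.6% against 12.98%, and CCAAT in 31.8% against 38.2%. Median GC content was 57.3% against 56.3%. A match is a description of the letters only. The ETS matches of 6 of the 8 windows, those not printed whole, follow with 10 bases on each side, 5′ to 3′ on the strand of the gene, with the match in capitals (CTTCCGG is the motif read on the opposite strand). They are Psmc1 (chr12:100110164-100110190, plus strand), Psmc2 (chr5:21785181-21785207, plus strand), Psmc6 (chr14:45329714-45329740, plus strand), Psmd2 (chr16:20651616-20651642, plus strand), Psmg1 (chr16:95991013-95991039, minus strand) and Psmg3 (chr5:139826874-139826900, minus strand).
Psmc1: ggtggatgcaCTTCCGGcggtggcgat
Psmc2: ccagtgagcaCTTCCGGgatggggctc
Psmc6: ggcgggccagCCGGAAGgggcggagcc
Psmd2: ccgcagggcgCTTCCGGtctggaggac
Psmg1: tcgcggcggaCCGGAAGctcttaggtt
Psmg3: cggacaggaaCCGGAAGttctcgccgg

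These matches began between position -100 (Psmc6) and position 5 (Psmg3) from the start, and that of Psmd6, printed above, at -45.

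Doxycycline alone and the uninduced construct were compared through genes called in both libraries of 1 condition and neither of the other; 2 against 2 libraries cannot give an exact p below 0.333, and the comparisons share libraries. For RUNX1, no proteasome gene split this way between Control -Dox and Control +Dox in either direction (0.461% and 0.142% of all genes). This and the next RUNX1 comparison use Control -Dox replicate 1, whose peak names hold a +Dox tag, so its treatment is in doubt. Psmd2 and Psme2 were called in both Control -Dox libraries and neither CM -Dox library (0.786%), and Psmb3 the reverse (0.571%). Psmb4, Psmc2 and Psmd7 were called in CM -Dox and not in CM +Dox (2.91%), and Psmc6 and Psme2 the reverse (0.923%). Psmb4 and Psmd7 were called in Control +Dox and not in CM +Dox (2.83%), and Psmb9 the reverse (1.22%).

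For CHD7, Psma7 and Psmd8 were called in both Control -Dox libraries and neither Control +Dox library (0.809% of all genes), and Psmb8 the reverse (0.699%). No proteasome gene split between Control -Dox and CM -Dox (0.795% and 1.11%). Psme3 was called in CM -Dox and not in CM +Dox (0.69%), with none the reverse (1.27%). Psme3 was likewise called in Control +Dox and not in CM +Dox (0.95%), and Psmd5, a cap chaperone, the reverse (2.11%).

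Partners of the proteasome outside the Psm symbols were described from a list of 27 genes: subunits, chaperones and shuttles under other names, ubiquitin genes, regulators and antigen-processing genes. RUNX1 was called at 24 of them in 1 or more libraries (31.1% of all genes) and at 14 in all 6 libraries without induced CM (13.5%). Of the 14, 10 were kept in both CM +Dox libraries (76.2% of all genes so called), 3 were called in 1 (11.5%) and Tap2, the partner of Tap1, was lost (12.3%). Usp14, a deubiquitinase of the cap, was absent from all 6 and called in each CM +Dox library, at a highest rank of 12.2 (0.306% of all genes were gained). CHD7 was called at 26 in 1 or more libraries (38.9% of all genes) and at 10 in all 6 (10.5%), of which 9 were kept in both (91.2%) and Ddi2 was called in 1 (7.86%).

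Within this partner list the highest mean CHD7 ranks were at parts of the cap. Uchl5, a cap deubiquitinase, had a mean rank of 99.9, Sem1, a small lid subunit, 99.3, and Adrm1, a ubiquitin receptor, 99.2. RUNX1 at Pomp, the proteasome maturation protein, had a mean rank of 76.9 and a lowest of 54.7, above the mean of 60.0 at Psmd8. The regulators Nfe2l1 and Nfe2l2 had RUNX1 in all 8 libraries, at mean ranks of 32.5 and 51.0.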

How the data were processed

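RUNX1 and CHD7 ChIP-seq peaks were analysed in 16 libraries, grouped by the labels' construct and treatment. Bowtie2 2.0.6 and MACS2 2.0.10 were used with mm10, per the submitters' processing notes. Read filters, depths and the background library are not stated in those notes. Peaks were called per sample. The authors deposited 1 score per peak, the −log10 of its p-value, which served here for ranks and filters inside 1 list. Thresholds were 1e-09 in 5 RUNX1 lists, 1e-07 in 3, and 0.01 in all 8 CHD7 lists. Gene spans and promoter sequences came from RefSeq tables of GRCm38.p6.

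The genes and lists were chosen with earlier results of these data known. Each gene was tested, CM +Dox (2 libraries) against the other 6, by a two-sided Fisher exact test of calls, with Benjamini-Hochberg adjustment over all genes with a call; the test was tried on simulated data. Named were the 10 genes with the highest mean rank per antibody, all lost, partly kept or gained genes, catalytic and inducible subunits, and genes without peaks; others were picked after their values were seen. Some genes of the partner list are not reported here by name. Alternatives were list length, score, window, gene start, threshold, promoter window, replicate block and leaving out each library. Python 3.11.15, numpy 2.4.6, pandas 2.3.3, scipy 1.17.1 and matplotlib 3.10.9 were used.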

Additional observations from a re-analysis of the deposited data

How the results depend on the processing

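Of 437 values recomputed under alternatives, 380 kept their direction or stayed within 1.5 times the reported count and 57 moved. Of 142 values for single genes 126 kept their direction, and 16 were at 0, for Psmd4, Psmc4, Psmd3, Psmd13 and Psmg2. The order of the RUNX1 means turned with equal list lengths, with peaks at or above the median score and within replicate number 2 (18 and 20), that of CHD7 without CM +Dox CHD7 replicate 1 (27.5 and 28). With equal list lengths the RUNX1 mean was 6 without induced CM and 15.5 in CM +Dox. Genes called in all 6 libraries were 1 (5.48% of all genes), lost 1, kept 0 and gained 4. CHD7 lost was 0, and genes with both proteins were 3.83 without and 7.5 with induced CM. With peaks at or above the median score the RUNX1 values, in the same order, were 4.33 (4.5 in CM +Dox), 0 (3.4% of all genes), 0, 0 and 1. CHD7 had 11 called in all 6 (5.68% of all genes) and 0 lost, and genes with both proteins were 1.67 and 2. With annotated starts only, RUNX1 gave 6, 1 lost and 3 kept. Windows of 500 bp and 2 kb each gave 1 CHD7 gene gained (Psmd14 and Psma2). Promoter windows, added after the data were seen, gave RUNX1 7 in all 6 and 1 lost, and CHD7 12, 0 lost and 1 gained. A common RUNX1 threshold of 1e-09 left Psmb4 and Psmd7 lost. The cause of these moves was not tested.

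Leaving out 1 library gave RUNX1 means of 20.2 to 22.8 and 17 to 20, 11 to 15 called throughout, 2 to 3 lost, 7 to 8 kept and 0 to 1 gained; CHD7 means of 26.6 to 28.4 and 23 to 28, 19 to 20 called throughout, 1 to 4 lost (4 without CM +Dox CHD7 replicate 2), 15 to 18 kept and 0 to 1 gained; and 15 to 16.4 and 10 to 13 with both. No gene passed the test in any of these, which is no sign of stability. With so few libraries a gene could pass only if most tested genes split fully, and with 1 CM +Dox library none could.

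The labels tie the replicate numbers to no shared batch and there are only 2 numbers, so samples were not treated as paired, although deviations of same-numbered samples correlated at 0.107 to 0.444 for RUNX1 and -0.000166 to 0.0804 for CHD7 over 6 pairs of groups. With a replicate block, number 1 alone gave RUNX1 17 called throughout, 6 lost, 11 kept and 1 gained, and CHD7 5 lost and 3 gained; number 2 alone gave RUNX1 4 gained and CHD7 2 lost and 2 gained. The blocked test has a smallest p of 0.0625, above the threshold of 0.05, so it could pass 0 genes. Read depth is unknown, so an absent peak is not absent binding.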
